A study of Mus musculus with 67 samples.

Results

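The genes described here are the solute carriers and ATP-driven transporters of the mouse cerebral cortex, measured in 67 C57BL/6 mice that each gave 1 cDNA filter array. A gene was included when its array spot carried a single symbol that begins with Slc and a digit, Slco, Abca to Abcg and a digit, Atp1, Atp2 or Atp6, and the mitochondrial Slc25 carriers were left out. These symbols took in 81 genes of 3905 with a single symbol, on 95 of 8448 spots. The symbol rule also takes in Atp11 and Atp13 genes, Slc9a3r1, which is a scaffold protein, and Abce and Abcf genes, whose products are not membrane transporters. The mice were male or female and were fed ad libitum (AL) or kept on caloric restriction (CR), with food restricted in steps from young adulthood. The AL animals comprised 5 males and 5 females in each of the age classes 1, 6, 16 and 24 months. The CR animals comprised 4 males and 5 females at 6 months, 5 and 5 at 16 months, and 3 males and 5 females at 24 months. The class called 1 month spanned 17 to 44 days, the oldest spanned 673 to 743 days, and no allele or transgene separated the groups. The 3 CR males of the oldest class were all 673 days old and its AL males 714 to 743, whereas its CR females at 703 to 743 days and AL females at 704 to 733 overlapped, so in males diet and age cannot be told apart in this class.

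Solute carriers move ions, sugars, amino acids, metabolites and metals down their gradients or by coupling them to another solute, whereas ATP-binding cassette proteins and P-type and vacuolar ATPases spend ATP to pump. In the cortex the sodium pump sets the gradients that neurons and astrocytes draw on for transmitter and nutrient uptake. The vacuolar proton pump, a V1 sector that splits ATP joined to a V0 sector in the membrane, acidifies lysosomes and synaptic vesicles so that transmitter can be loaded. At the blood-brain barrier and in glia, carriers of glucose, lactate, amino acids and organic anions regulate what enters and leaves the tissue.

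A value is a z-score, the signal of a spot in standard deviations from the mean of its own array, so differences are given in z-score units and not as folds, and the level of 1 gene is not set against that of another. Spots with a mean z-score above 0 over the 67 arrays were kept, and kept spots of a gene were averaged, which left 37 of the 81 genes among 3781 features tested. Of the 12 genes with more than 1 spot on the array, 6 had more than 1 spot kept. Arrays 1 to 45 and arrays 46 to 67 differed by a step that moved 72% of the features and 31 of the 37 transporter genes, 18 of those 31 higher in arrays 46 to 67. The cut after array 45 was found in an earlier look at these data and is in no label, so these counts are not a separate test of it. The steps ran from -1.48 for Atp6v0a4 and -1.24 for Abcb1b to 0.946 for Slc35b4, with a median size of 0.246 against 0.188 over all features. The array set was therefore a term of every test, and group values are given after its removal (set-adjusted), with every pooled diet and age group holding arrays of both sets. Array 67, an AL female at 24 months, correlated least with the rest, at a median r of 0.783 over all spots, and it gave the lowest value of the 10 AL mice of its age for 16 of the 37 genes and the highest for 7. The free-text description of array 27 is that of another mouse, whereas its title and other labels give an AL male of 24 months, which were followed. Some results at 24 months are also given without array 67 or without array 27.

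Coverage of the families was uneven. The vacuolar proton pump was the best measured, with 7 of 9 genes on the array above the filter. The sugar and monocarboxylate carriers had 5 of 7 and the amino acid carriers 4 of 7. The Slc35 genes, grouped as nucleotide sugar carriers by symbol alone, had 5 of 10. The carriers of organic ions, vitamins, nucleosides, phosphate and lipids had 4 of 15. The metal carriers had 2 of 4, the Abca, Abcb, Abcc, Abcd and Abcg pumps 2 of 6 and the other P-type ATPases 3 of 5. The sodium pump subunits had 1 of 2. The exchangers of bicarbonate, protons and calcium had 1 of 4, where the 4 include the scaffold gene Slc9a3r1 by its symbol. None of the 4 transmitter-type carriers and neither of the 2 cation-chloride cotransporters passed, and the calcium pumps were not analysed here. The genes just below the filter were Slc44a4, Slc34a2 and Slc38a1, at mean z-scores of -0.0357, -0.0488 and -0.064. Those just above it were Atp13a5 at 0.0154, Slc7a2 at 0.0227 and Slc7a8 at 0.117.

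No transporter gene reached an adjusted p under 0.05 in any of 12 comparisons of age, diet and sex (limma, Benjamini-Hochberg over all features), and in each comparison 0 of the 3781 features did, a background of 0%. The counts at an unadjusted p under 0.05 were therefore read against the share of all features at that level. That background was 4.05% for 6 months minus 1 month in AL mice, where 1 of the 37 genes passed. It was 1.77% within the youngest class, for 33 to 44 days minus 17 to 21 days, with 2 genes. For 16 minus 6 months it was 2.51%, with 0 genes. For 24 minus 16 months it was 14.9%, with 2 genes, and for 24 minus 6 months it was 8.15%, again with 2 genes. For CR minus AL it was 3.86% at 6 months with 2 genes and 1.22% at 16 months with 0 genes. At 24 months the background of CR minus AL was 11.1%, and 11 of the 37 genes, 29.7%, passed. For adult females minus adult males it was 8.49%, with 5 genes. For the dependence of the CR difference on age it was 5.9% with 2 genes, for that of the sex difference on age 6.37% with 0 genes, and for that of the CR difference on sex 4.55% with 1 gene.

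**Figure D1:**
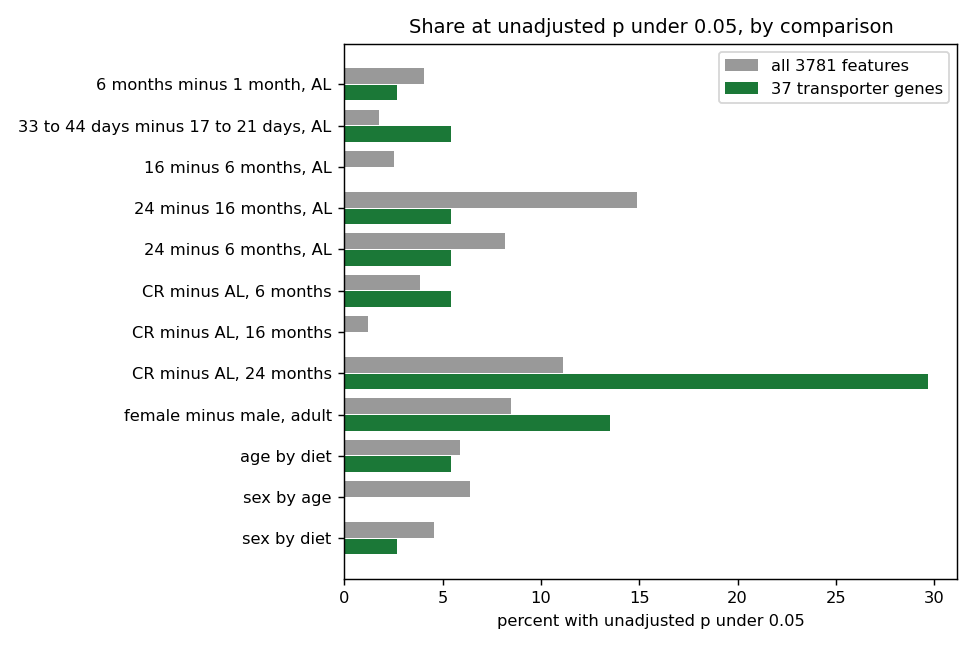
Percent of all 3781 features (grey bars) and of the 37 transporter genes (green bars) with an unadjusted p under 0.05 in each of 12 comparisons. The green bar is longest for CR minus AL at 24 months, at 29.7% against 11.1%, and it is below the grey bar for 24 minus 16 months, at 5.41% against 14.9%.

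The methods of the study used another rule, a z-ratio beyond 1.5 in size with an unadjusted p under 0.05 from groups compared directly. What remained went through an analysis of variance. Here a gene had to pass all of these, at p under 0.05 in the analysis of variance as well. Its second factor was sex, or the diet and age class where the sexes were compared. This z-ratio rule took 3 of the 37 genes for CR minus AL at 24 months, Slco1b2, Slc66a2 and Slc7a8, against 2.17% of the features. It also took 3 for females minus males, Atp6v1e1, Slc2a8 and Atp13a5, against 2.49%. It took 0 of the 37 in the other 6 comparisons it was run on. The features it took there amounted to 1.67% for 6 months minus 1 month, 1.08% for 16 minus 6 months, 2.3% for 24 minus 16 months, 1.77% for 24 minus 6 months, 3.52% for CR minus AL at 6 months and 0.45% for CR minus AL at 16 months.

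The question of what caloric restriction does in old cortex gave the highest count. Of the 11 genes at an unadjusted p under 0.05, 7 were lower in CR mice at 24 months and 4 were higher, against 3.83% and 7.27% of all features in these directions. The lower genes were Slco1b2, Atp6v1e1, Abcf1, Slc7a8, Slc5a11, Atp13a1 and Abcd3, and the higher genes were Slc66a2, Slc7a6, Slc7a2 and Atp6v1b2. Over the 37 genes the median difference was -0.0224, beside 0.0168 over all features, and 17 of 37 were higher, 45.9% against 56.7%. The count depended on the arrays used. It fell to 5 of 37, or 13.5%, without array 67, where 6.63% of features passed, and to 3, or 8.11%, without female CR replicate 1, where 9.38% did. It was 4 (10.8%) without male AL replicate 5 against 8.17% of features, 5 (13.5%) without male CR replicate 2 against 9.52%, and 6 (16.2%) without female CR replicate 5 against 8.61%. It was 7 (18.9%) without each of female AL replicate 2, male AL replicate 3, male CR replicate 1 and male CR replicate 3, against 10.8%, 10.1%, 12.3% and 10.5% of features. In arrays 1 to 45 alone 3 of 37 genes (8.11%) passed against 4.05% of features, and in arrays 46 to 67 alone 3 of 38 (7.89%) against 6.53%. With no term for the array set 3 of 37 (8.11%) passed against 6.4%. The sign of the difference was the same in both array sets for 23 of 31 genes measured in both, and for 62.9% of features.

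**Figure D2:**
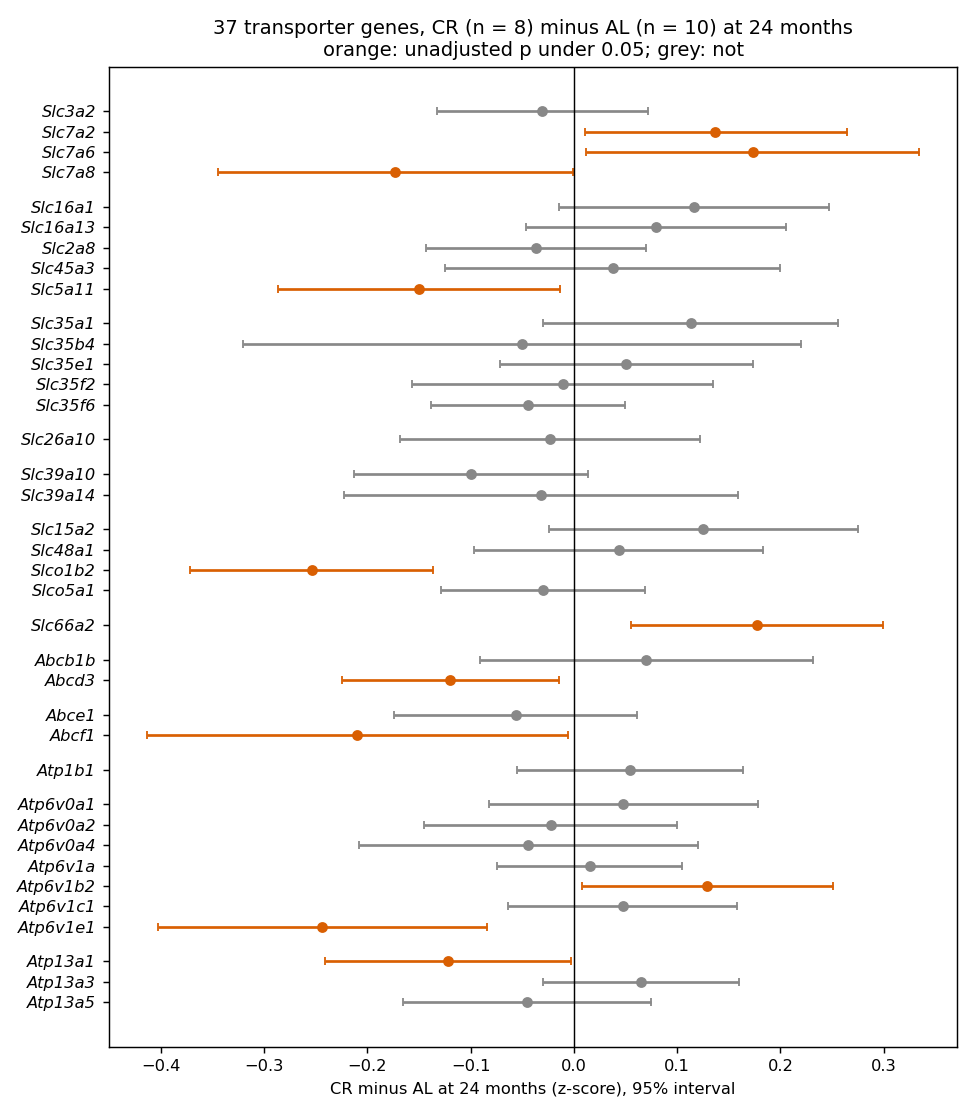
Difference in z-score between CR mice (n = 8) and AL mice (n = 10) at 24 months for the 37 transporter genes, as points with 95% intervals and with families separated by gaps. The intervals of the 11 genes drawn in orange do not cross 0, and Slco1b2 at -0.254 and Atp6v1e1 at -0.244 lie farthest to the left.

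Slco1b2 gave the smallest p of the 37 genes at 24 months. It encodes an organic anion transporter best known from hepatocytes, where it takes up bile acids and bilirubin. Its values came from 1 spot, at a mean z-score of 0.304, with no other spot of the gene on the array. The z-scores as deposited were 0.21, 0.19 and 0.05 in the 3 CR males and 0.11, 0.03, 0.22, 0.31 and 0.23 in the 5 CR females. They were 0.53, 0.23, 0.37, 0.36 and 0.60 in the 5 AL males and 0.45, 0.41, 0.25, 0.45 and 0.57 in the 5 AL females. Every CR mouse of arrays 1 to 45, at 0.03 to 0.22, was below every AL mouse of those arrays, at 0.23 to 0.53. In arrays 46 to 67 the CR mice at 0.05 to 0.31 were likewise all below the AL mice at 0.36 to 0.60. After the set adjustment the CR mice lay between -0.01 and 0.25 and the AL mice between 0.259 and 0.559. The groups did not overlap, by a margin near the step of 0.01 in which the values were deposited, and 8 of 8 CR mice were below the AL mean. Slco1b2 was the 1 transporter gene whose groups did not overlap, against 0.0264% of all features.

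The mean of Slco1b2 was 0.165 ± 0.0966 in CR mice (SD, n = 8) and 0.416 ± 0.109 in AL mice (n = 10). The fitted difference was -0.254 ± 0.0592 (SE), with a 95% interval of -0.372 to -0.136 and an adjusted p of 0.0846 (limma), which did not pass. The unadjusted p was 6.13e-05. The difference was -0.213 ± 0.0783 within arrays 1 to 45 and -0.335 ± 0.0847 within arrays 46 to 67. The adjusted p passed under 4 other ways of scaling or weighting the arrays, at 0.0453 with quantile normalization, 0.0412 with normal scores of ranks, 0.0434 with spot class medians subtracted and 0.00404 with array weights. Of all features tested, 2, 3, 3 and 5 passed under these settings. It was 0.483 with no term for the array set, where the difference was -0.257. Without array 27 the difference was -0.274 with an adjusted p of 0.0497, and without array 67 it was -0.243 with an adjusted p of 0.245. Leaving out each array in turn gave adjusted p-values from 0.0379 to 0.278, and within the array sets they were 0.996 and 0.606. Slco1b2 is among the genes in the supplement of the published account, which covers these samples and other regions of the nervous system. Its list and direction there are not given here, and its direction is not independent evidence.

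**Figure D3:**
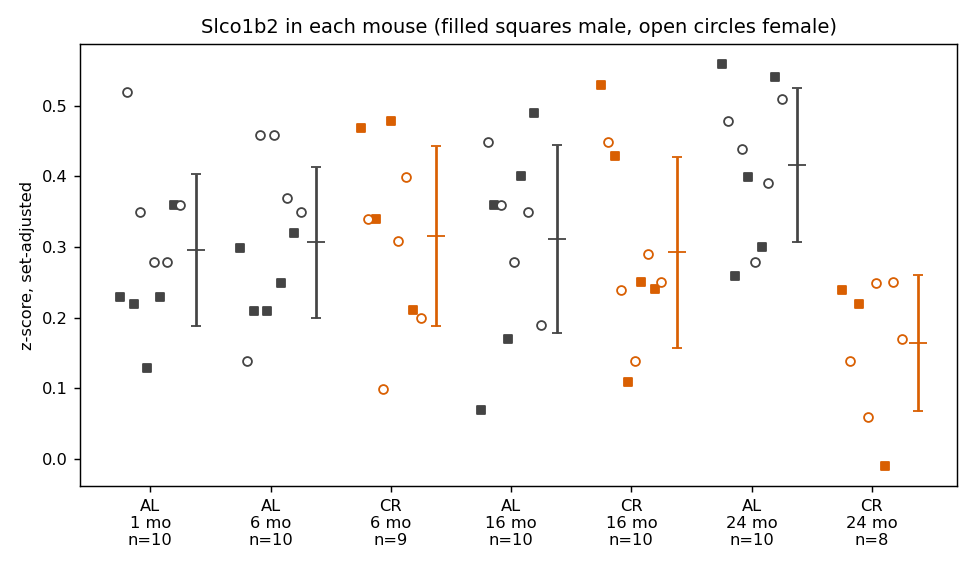
Set-adjusted z-score of Slco1b2 in each of the 67 mice, by diet and age class, with males as filled squares and females as open circles and with the mean and SD at the right of each group. The CR mice at 24 months lie between -0.01 and 0.25 and the AL mice of that age between 0.259 and 0.559, whereas the diets overlap at 6 and 16 months.

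At the younger ages the diets did not separate for Slco1b2. At 6 months the CR mean was 0.316 ± 0.127 (n = 9) and the AL mean 0.307 ± 0.107 (n = 10). At 16 months the CR mean was 0.293 ± 0.136 and the AL mean 0.312 ± 0.133 (n = 10 each). The fitted differences were 0.0155 with an interval of -0.0975 to 0.128 at 6 months and -0.019 with an interval of -0.129 to 0.0905 at 16 months. The test of whether the CR difference depended on age gave an adjusted p of 0.667 (unadjusted p of 0.00301), the smallest of the 37 genes, with a CR difference at 24 months 0.269 below that at 6 months. Within AL mice the Slco1b2 mean was 0.295 ± 0.107 at 1 month and 0.416 ± 0.109 at 24 months (n = 10 each). The difference of 24 minus 6 months was 0.109 ± 0.0549 (adjusted p of 0.613) and shares the AL mice at 24 months with the diet comparison. Adult females and males differed by 0.00252 ± 0.0329.

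Among the proton pump subunits, Atp6v1e1 and Atp6v1b2 lay on opposite sides at 24 months. Atp6v1e1 encodes subunit E of the stalk that holds the V1 sector, and Atp6v1b2 the B subunit isoform of that sector found in brain. The set-adjusted Atp6v1e1 values of the CR males were 0.393, 0.357 and -0.117, and those of the CR females were 0.557, 0.333, 0.327, 0.203 and -0.027. The AL males were at 0.687, 0.467, 0.453, 0.323 and 0.233, and the AL females at 0.697, 0.537, 0.533, 0.533 and 0.423. The groups overlapped, with 7 of 8 CR mice below the AL mean and 1 CR mouse of each sex below 0. The means were 0.253 ± 0.225 (n = 8) and 0.489 ± 0.145 (n = 10), and the difference of -0.244 ± 0.0797 had an adjusted p of 0.212. It was -0.263 ± 0.0984 and -0.197 ± 0.112 within the earlier and the later array set, -0.224 without array 67 and -0.161 without male CR replicate 1, the mouse at -0.117. The CR difference of Atp6v1e1 was -0.15 ± 0.0761 at 6 months and -0.056 ± 0.0738 at 16 months, with an adjusted p of 1 at both. Without male CR replicate 2 at 6 months the former was -0.0964, and within the array sets it was -0.0971 and -0.32.

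Atp6v1b2 ran from 0.758 to 1.26 in CR mice at 24 months, with a median of 0.903, and from 0.608 to 0.939 in AL mice, with a median of 0.843. The difference was 0.129 ± 0.0607 (adjusted p of 0.419). The catalytic subunit gene Atp6v1a was at 0.0151 with an interval of -0.0748 to 0.105, and its 2 spots pointed opposite ways, at -0.0872 ± 0.0583 and 0.117 ± 0.0613. Over the 7 subunit genes 4 were higher and 3 lower in CR mice, with a median of 0.0151 beside 0.0168 over all features, so the subunits did not share a direction. Both Atp6v1e1 and Atp6v1b2 are in the supplement of the published account.

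Slc66a2, which encodes a membrane protein of the PQ-loop family, had the smallest p of the 4 genes that were higher in CR mice. Its set-adjusted values were 0.471, 0.391 and 0.387 in the CR males and 0.581, 0.557, 0.471, 0.461 and 0.457 in the CR females. The AL males were at 0.317, 0.301, 0.261, 0.211 and 0.177, and the AL females at 0.511, 0.387, 0.361, 0.201 and 0.107. All 5 AL males lay below every CR mouse, and 8 of 8 CR mice were above the AL mean, while 1 AL female lay among the CR values and another reached the lowest of them. The difference was 0.177 ± 0.061 (adjusted p of 0.244), and 0.151 without array 67, which was the lowest AL mouse. Within the array sets it was 0.16 ± 0.0847 and 0.2 ± 0.0883.

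The amino acid carriers split. Slc7a2 (cationic amino acids) and Slc7a6 (an exchanger of cationic for neutral amino acids) were higher in CR mice at 24 months, by 0.137 ± 0.0635 and 0.173 ± 0.0808. For Slc7a2 only 4 of 8 CR mice were above the AL mean, and CR mice ran from -0.0795 to 0.511 with a median of 0.0834, against an AL median of 0.0555. For Slc7a6 7 of 8 were above it. Slc7a8, a carrier of large neutral amino acids, was lower in CR mice, at -0.173 ± 0.0862, with a mean of 0.0122 ± 0.0748 (n = 8) against 0.182 ± 0.134 (n = 10). Slc3a2, the heavy chain that Slc7a6 and Slc7a8 need to reach the membrane, was at -0.0307 ± 0.0515. Adjusted p-values of the Slc7 genes were 0.411, 0.416 and 0.448. Slc7a2 and Slc7a8 lay near the filter on low values.

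Of the remaining genes at an unadjusted p under 0.05, Slc5a11, a sodium-coupled inositol carrier, differed by -0.15 ± 0.0685, and by -0.11 without array 67. Abcd3, a peroxisomal half-transporter for acyl-CoA, differed by -0.12 ± 0.0527, with CR mice from 0.33 to 0.68 and AL mice from 0.499 to 0.77. Abcf1, a factor in the start of translation, differed by -0.21 ± 0.102, and Atp13a1, a pump of the endoplasmic reticulum that removes misplaced protein segments, by -0.122 ± 0.0598. Both had their highest AL value at 24 months in array 67, at 1.99 and 1.48. The 2 spots of Atp13a1 gave -0.169 ± 0.0656 and -0.0753 ± 0.0691. Adjusted p-values of these genes ran from 0.39 to 0.445.

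Few markers of cell types could be read beside these values. Above the filter were 3 astrocyte genes, 4 neuronal genes, 1 oligodendrocyte gene and 1 of 2 endothelial genes. Endothelial Cdh5, choroid plexus Ttr and meningeal Igf2 were below it, and no listed microglial or blood marker was among the single symbols of this filter. For CR minus AL at 24 months, astrocyte Glul was at -0.146 ± 0.058 and neuronal Stmn3 at 0.186 ± 0.0818, with adjusted p-values of 0.327 and 0.39. The neuronal genes Snap25, Tubb3 and Uchl1 were at 0.128, -0.0419 and 0.0222, and astrocyte Aldoc and Cst3 at 0.0046 and -0.0687. Oligodendrocyte Car2 was at 0.0466 and endothelial Pecam1 at 0.0866. Of the measured markers, 1 of 3 astrocyte and 3 of 4 neuronal genes were higher in CR mice, and their part in the transporter results was not tested. In whole tissue fewer cells of a type and less RNA per cell cannot be told apart.

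Caloric restriction at 6 months gave 2 genes at an unadjusted p under 0.05. Slco5a1, an organic anion transporter family member without an established substrate, ranged from 0.371 to 0.601 with a median of 0.491 in CR mice, and from 0.221 to 0.501 with a median of 0.328 in AL mice. Slc39a10, a zinc importer, ranged from 0.782 to 0.942 with a median of 0.852 in CR mice, and from 0.641 to 0.882 with a median of 0.722 in AL mice. For both genes 9 of 9 CR mice were above the AL mean, although the groups overlapped. The differences were 0.128 ± 0.0473 and 0.121 ± 0.054, each with an adjusted p of 1. At 16 months the smallest p belonged to Slc3a2 at -0.069 ± 0.0476, followed by Slco5a1 at 0.062 ± 0.0459, Atp13a1 at -0.064 ± 0.0553, Slc66a2 at 0.053 ± 0.0565 and the sialic acid donor carrier Slc35a1 at -0.062 ± 0.0664. Single mice moved the last 3 by over 1.5 times. Atp13a1 was at -0.0399 without male AL replicate 2. Slc66a2 ran from 0.0192 without that mouse to 0.0881 without male CR replicate 2, and also moved without female AL replicate 1, male AL replicate 3, female CR replicate 3 or male CR replicate 4. Slc35a1 ran from -0.107 without female CR replicate 3 to -0.0321 without female CR replicate 1, and also moved without female AL replicate 3, female AL replicate 5 or male AL replicate 3. The median of the 37 genes was -0.0077 at 6 months and -0.005 at 16 months, beside -0.0121 and 0.003 over all features.

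**Figure D4:**
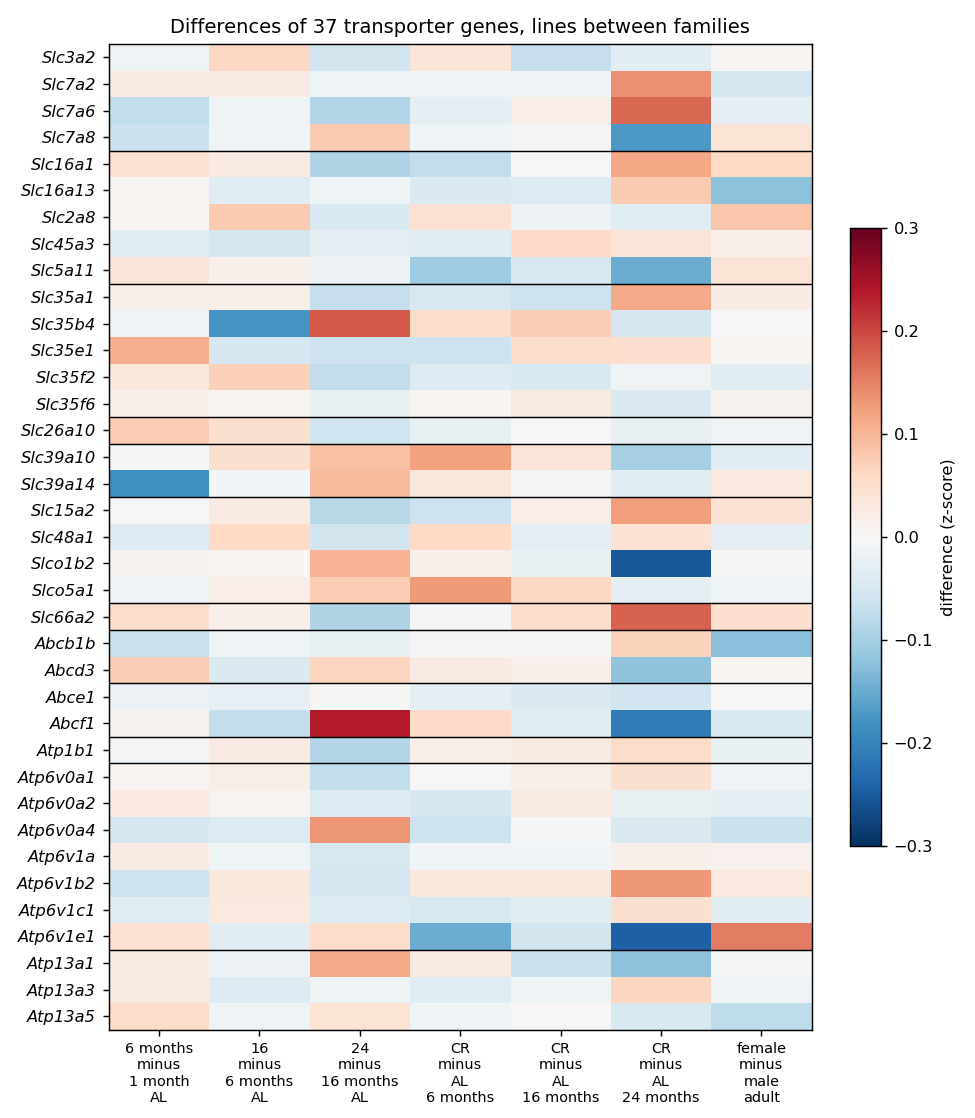
Differences in z-score of the 37 transporter genes (rows, with lines between families) in 7 comparisons of age within AL mice, of diet at each age and of sex (columns), red where the first-named group was higher and blue where it was lower. The column for CR minus AL at 24 months holds the darkest blue cells, at -0.254 for Slco1b2 and -0.244 for Atp6v1e1, and neighbouring columns share mice.

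The age comparisons used AL mice alone. From 6 to 24 months the 2 genes at an unadjusted p under 0.05 were Slc39a10 and Slco5a1, the same 2 that led at 6 months in the diet comparison, which uses the same AL mice at 6 months. Slc39a10 was at 0.74 ± 0.0876 at 6 months and 0.874 ± 0.195 at 24 months (n = 10 each), a difference of 0.135 ± 0.0525 (adjusted p of 0.484). At 24 months male AL replicate 4 stood apart at 1.31, and without it the difference was 0.0873. Within the earlier array set it was 0.0325 ± 0.0615 and within the later 0.313 ± 0.109. Slco5a1 was at 0.353 ± 0.0931 and 0.448 ± 0.0921, a difference of 0.0954 ± 0.0459 (adjusted p of 0.582), with 8 of 10 mice at 24 months above the mean at 6 months.

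From 16 to 24 months the 2 genes were Abcf1, at 0.239 ± 0.0943 (adjusted p of 0.27), and Atp13a1, at 0.113 ± 0.0553 (adjusted p of 0.329). Without array 67 these differences were 0.184 and 0.0721. They share the AL mice at 24 months with the diet comparison in which the same genes had the opposite sign. Slco1b2, Atp6v0a4 and Atp1b1 followed, at 0.104 ± 0.0548, 0.133 ± 0.0759 and -0.089 ± 0.0508, and Atp1b1 was at -0.0583 without male AL replicate 3 at 16 months. From 6 to 16 months the smallest p belonged to Slc2a8 at 0.0777 ± 0.0494, then to Slc35b4, a carrier of UDP-sugars, at -0.177 ± 0.125, Slc3a2 at 0.0631 ± 0.0477, Slc35f2 at 0.0717 ± 0.0676 and the heme carrier Slc48a1 at 0.0604 ± 0.0651. Among these, Slc35b4 was at -0.107 without male replicate 4 at 6 months. Slc35f2 was at 0.0236, 0.0477 and 0.114 without male replicate 2, female replicate 1 and male replicate 1 at 6 months. Slc48a1 was at 0.0338 without female replicate 2 at 16 months and 0.0393 without male replicate 4 at 6 months. For 24 minus 16 months 13 of the 37 genes were higher, with a median of -0.019 beside -0.02 over all features.

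By family from 6 to 24 months, the gene with the smallest p among the nucleotide sugar carriers was Slc35e1, at -0.111 ± 0.0569, but at -0.0121 within the earlier array set and -0.278 within the later. Among the proton pump subunits it was Atp6v1a, at -0.0614 ± 0.0418, and 5 of 7 subunits were lower, with a median of -0.0159 beside -0.0224 over all features. The sugar and monocarboxylate carriers had a median of -0.0492 with 4 of 5 lower, led by Slc45a3. Slc16a1, which carries lactate and ketone bodies, was at 1.07 ± 0.122 at 6 months and 1.01 ± 0.137 at 24 months, a difference of -0.0644 with an interval of -0.186 to 0.0569. Atp1b1, the β1 subunit of the sodium pump, was at 1.33 ± 0.077 and 1.26 ± 0.0774, a difference of -0.064 with an interval of -0.166 to 0.0377. The 2 spots of Atp1b1 gave -0.105 ± 0.06 and -0.0226 ± 0.0549, and those of Atp6v1a gave 0.0056 ± 0.054 and -0.128 ± 0.0568. Slc7a6, Slc66a2, Abcd3, Abcf1, Atp13a1 and Slc26a10 had the smallest p of their families, with adjusted p-values from 0.642 for Abcf1 to 0.966 for Slc26a10.

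In the youngest animals the 6 months minus 1 month comparison had 1 gene at an unadjusted p under 0.05. Slc39a14, a zinc, iron and manganese importer, was at 0.384 ± 0.37 at 1 month and 0.201 ± 0.147 at 6 months (n = 10 each). The mice at 1 month ran from 0.14 to 1.36 with a median of 0.24, and without male replicate 1, the mouse at 1.36, the difference moved from -0.183 to -0.0789. Slc35e1 at 0.11 ± 0.0569, Abcd3 at 0.0748 ± 0.0489, Slc26a10 at 0.076 ± 0.0673 and Atp6v1b2 at -0.0619 ± 0.0563 followed. Slc26a10 was at 0.155 without male replicate 2 at 6 months, the mouse at 0.559, and at 0.0391 without male replicate 1, and Atp6v1b2 was at -0.04 without the latter mouse. Within that class, mice of 33 to 44 days had Slco5a1 at 0.438 ± 0.122 and mice of 17 to 21 days at 0.293 ± 0.0536 (n = 5 each). The older mice had Slc3a2 at 1.27 ± 0.065 and the younger at 1.13 ± 0.0667. The fitted differences were 0.154 ± 0.0654 and 0.138 ± 0.0681, each with an adjusted p of 0.998.

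Between the sexes, 5 genes were at an unadjusted p under 0.05 in adults, 2 higher in females and 3 lower, against 4.58% and 3.91% of all features. Slc16a13, a member of the monocarboxylate carrier family, had a median of 0.748 in females, from 0.156 to 0.998, and of 0.868 in males, from 0.488 to 1.12. It was at 0.736 ± 0.154 in females (n = 30) and 0.854 ± 0.131 in males (n = 27), with 26 of 30 females below the male mean. The difference was -0.122 ± 0.0349 (adjusted p of 0.357). Another Slc16a13 spot, at a mean z-score of -1.01, was below the filter and not used. The lowest female was array 67, and without it the difference was -0.101. With array weights the adjusted p was 0.0357, and it ran up to 1 over the other alternatives. Within the array sets the difference was -0.101 ± 0.0408 and -0.156 ± 0.0751.

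Atp6v1e1 lay the other way, at 0.465 ± 0.168 in females and 0.323 ± 0.196 in males, with medians of 0.533 and 0.357. The difference was 0.153 ± 0.0442 (adjusted p of 0.357), and 25 of 30 females were above the male mean. Within the array sets it was 0.159 ± 0.0535 and 0.12 ± 0.0668. Slc2a8, a glucose carrier of intracellular membranes, was higher in females by 0.0841 ± 0.0295 (adjusted p of 0.391). Another Slc2a8 spot, at a mean z-score of -0.225, was below the filter. Abcb1b, 1 of the mouse P-glycoprotein genes, differed by -0.126 ± 0.0448 (adjusted p of 0.406) and by -0.101 without array 67, which held its lowest value, 0.941. Atp13a5 differed by -0.076 ± 0.0334 (adjusted p of 0.517). The median over the 37 genes was -0.00168, beside -0.00201 over all features.

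**Figure D5:**
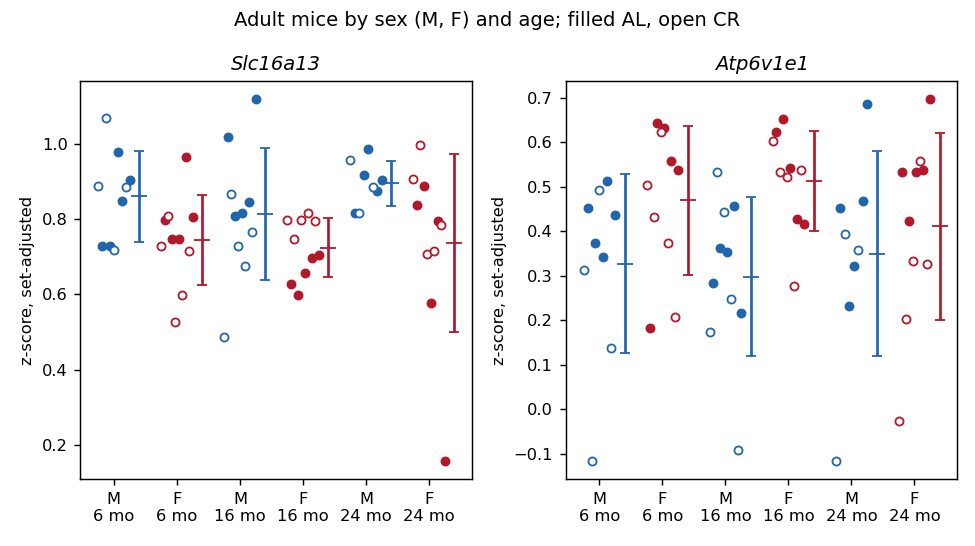
Set-adjusted z-scores of Slc16a13 (left) and Atp6v1e1 (right) in the 57 adult mice by sex and age, AL filled and CR open, with the mean and SD at the right of each group. Slc16a13 is lower in females, with array 67 at 0.156, and Atp6v1e1 is higher in females, while the sexes overlap for both.

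The tests of dependence between factors gave no transporter gene past the threshold. After Slco1b2, Slc39a10 had the smallest p for the dependence of the CR difference on age, with a CR difference 0.22 lower at 24 than at 6 months (adjusted p of 0.826). For the dependence of the sex difference on age the smallest p belonged to Atp6v1c1, subunit C of the proton pump (adjusted p of 0.776). For the dependence of the CR difference on sex it belonged to Atp6v1a, at 0.103 ± 0.05 (adjusted p of 0.943).

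The 44 genes below the filter were fitted in a run with no filter, which tested 7565 features and all 81 genes. In that run 18 of the 81 genes, 22.2%, were at an unadjusted p under 0.05 for CR minus AL at 24 months, against 11.3% of features, and 8 of 81 for 24 minus 6 months, against 7.38%. No gene passed the adjusted threshold. Slc6a8, the creatine transporter, was at -0.18 ± 0.0751 for 24 minus 6 months and at 0.233 ± 0.081 for CR minus AL at 24 months, which share the old AL mice, with adjusted p-values of 0.557 and 0.233. Slc6a6, the taurine transporter, Slc12a2, the sodium-potassium-chloride cotransporter, Slc13a4, Slc16a3, Slc38a1 and Atp1b2 had unadjusted p-values of 0.156 or more in these 2 comparisons. Mean z-scores below 0 lie beneath the mean of the array, and the share of background in them was not measured.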

How the data were processed

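Cerebral cortex RNA of 67 mice was labelled by the authors and hybridised to 1 cDNA filter array per mouse. The sample titles name this filter mouse17K-A, and its 8448 spots are fewer than the genes measured in the published account. A gene missing from this filter may therefore have been measured in that account. The deposited score of each spot is a z-score, made by the authors from the signals of its array, with mean 0 and SD 1 within the array. Whether logarithms were taken first is not given in the sources used here, and the values carry 2 decimals. The number of arrays limits the precision. Groups came from the sex, diet and age in the sample labels. Nothing pairs mice, and each p-value weighs a difference between groups against the spread within groups, pooled over all groups. With 1 array per mouse, this spread holds both mouse and array variation.

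Spots with a mean z-score above 0 (3974 of 8448) were averaged per single symbol, giving 1826 genes, and 1955 other spots were kept alone. All 81 transporter symbols came from the platform annotation, where 4788 spots had 1 symbol, 212 several and 3448 none. A model of 14 groups and the array set (arrays 1 to 45 or 46 to 67) was fitted with limma 3.58.1 in R 4.3.3. Sexes were weighted equally, and the age by diet and sex by age tests had 2 degrees of freedom. Benjamini-Hochberg adjustment ran over all 3781 features with a threshold of 0.05. Set-adjusted values are z-scores less the fitted set term, and intervals are 95%. The z-ratio rule of the methods was an alternative, with a z-ratio beyond 1.5, p under 0.05 and p under 0.05 in the analysis of variance. Other scalings, filters and covariates, each array set alone and leaving out each array were further alternatives. The script was tested on simulated data.

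Members and lists were chosen with earlier results of these data known. Genes named are the 5 with the smallest p in each comparison, the gene with the smallest p of each family for 24 minus 6 months, and members with known brain roles, some of which are in lists of the published account. Fewer are named for tests of interactions, for CR minus AL at 6 months and for the comparison within the youngest class. The remaining genes at an unadjusted p under 0.05 and Slc6a8 are named as well.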

Additional observations from a re-analysis of the deposited data

Results flagged for a closer look

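In 62 groups of 8 to 10 mice behind the named genes, 5 held 1 mouse whose gap to the next was large for the range of its group by Dixon's test, and chance gives about 1 in 20. For Slc39a14 male AL replicate 1 at 1 month was at 1.36 and the next mouse at 0.521. For Slc39a10 male AL replicate 4 at 24 months was at 1.31 and the next at 0.971. For Abcd3 female AL replicate 2 at 24 months was at 0.77 and the next at 0.63. For Atp13a1 male CR replicate 1 at 16 months was at 0.796 and the next at 0.951. For Slc26a10 male AL replicate 2 at 6 months was at 0.559 and the next at 1.03. No difference between groups in age, diet or sex effects passed its test.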

How the results depend on the processing

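With no transporter gene past the threshold, the counts of called genes stayed at 0 in all 12 comparisons except CR minus AL at 24 months and females minus males. At 24 months Slco1b2 was the 1 transporter gene called with array weights, normal scores of ranks, quantile normalization and spot class medians subtracted, among 5, 3, 2 and 3 features called in all, and 3 genes passed the z-ratio rule, among 82. Leaving out 1 array gave between 0 and 1 gene, the 1 being Slco1b2, without male AL replicate 2 (array 27), female AL replicate 3 or female CR replicate 4, among 3, 4 and 5 features. For females minus males 1 gene of 14 features was called with array weights and 3 of 94 by the z-ratio rule. The 11 genes at an unadjusted p under 0.05 for CR minus AL at 24 months became 6 with array weights (9.68% of features), 7 with spot class medians subtracted (10.8%), 3 with no term for the array set (6.4%), 3 in arrays 1 to 45 (4.05%), 3 in arrays 46 to 67 (6.53%) and 18 of 81 with no filter (11.3%). Leaving out 1 array gave between 3 (9.38%) and 13 (14.8%). The cause was not tested.

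The labels number no replicates. A replicate block of 5 cycles of the array number kept 0 genes called in every comparison, with 13 in place of 11 at an unadjusted p under 0.05 for CR minus AL at 24 months (12.2% of features), and Slco1b2 at an adjusted p of 0.0763.

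Of 53 differences with the smallest p in a comparison or family, 45 kept their sign under every alternative that averaged the spots of a gene. The other 8 did not, all with an adjusted p of 0.762 or more. Tested spot by spot, which these counts leave out, a spot of Atp6v1a was at 0.0056 for 24 minus 6 months, against -0.0614 for the gene. In arrays 46 to 67 alone the sign turned for Abcd3 (-0.035) and Slc39a14 (0.03), both for 6 months minus 1 month, and for Slco5a1 for CR minus AL at 16 months (-0.005). In arrays 1 to 45 alone it turned for Slc45a3 (0.0333) and Slc26a10 (0.000833), both for 24 minus 6 months, and for Slc66a2 for CR minus AL at 16 months (-0.0217). With no set term and by the z-ratio rule it turned for Slc48a1 for 16 minus 6 months (-0.043) and for Slc26a10 for 24 minus 6 months (0.013), and the latter was 0.0268 with spot class medians subtracted. Leaving out 1 array, Slc26a10 ran from -0.0877 to 0.0249 and Abcd3 from -0.00149 to 0.0399 for 24 minus 6 months.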
